A study of Mus musculus with 10 samples.

Results

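The genes described here are 39 genes of fatty acid oxidation, ketogenesis and the peroxisome, taken by symbol from a list and read from a table of 55385 genes. All 39 were in the table, and all 39 passed the filter on low counts. The study sequenced RNA of mouse liver hepatocytes in 10 libraries. The 4 used here ask what loss of EP300, a histone acetyltransferase and transcriptional coactivator, changes in an injured, cMet-driven liver. The sample titles of these 4 begin with HCC, short for hepatocellular carcinoma, and those of the other libraries begin with Liver. All 4 came from mice of the mixed strain C57BL/6J 129SV with both Ep300 alleles floxed (EP300f/f), which ate DDC, a porphyria-inducing compound that injures hepatocytes and bile ducts, and received pT3-cMet, a plasmid carrying the receptor tyrosine kinase gene cMet, by hydrodynamic tail vein injection, for 5 months. The 2 libraries of the EP300 KO group came from mice given an AAV with Cre under the TBG promoter, which is active in hepatocytes (genotype label EP300-/-). The 2 libraries of the EP300 WT group came from mice given the same vector with GFP in place of Cre (genotype label EP300f/f). Ages and sexes are not in the labels, nor is the gate by which the perfused liver cells were sorted. The labels mention pooled sequencing and tie no library to an animal, so the p-values rest only on how far these libraries differ, which can be technical.

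Hepatocytes burn fatty acids in mitochondria and, for very long and branched chains, in peroxisomes. Fatty acids are bound, joined to coenzyme A, passed into mitochondria on carnitine and shortened in repeated rounds of dehydrogenation, hydration, oxidation and thiolysis, with the electrons handed on through electron transfer flavoprotein. In fasting, the liver turns the acetyl-CoA into ketone bodies for other organs. The nuclear receptor PPARA, which binds fatty acids, switches on many of these genes, and acyl-CoA thioesterases work in the other direction by releasing coenzyme A from the fatty acid.

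In the KO-labelled libraries, 23 of the 39 genes were higher, 7 were lower and 9 did not pass (edgeR quasi-likelihood test, Benjamini-Hochberg adjusted over all genes, threshold 0.05). Over all 14200 genes tested, 34.2% were called, 16.7% higher and 17.5% lower, against 59.0% of the listed genes higher and 17.9% lower. The median log2 fold change, KO-labelled over WT-labelled, was 0.23 over the listed genes and -0.01 over all genes tested. Among the listed genes, peroxisomal genes and the binding and activation genes had the larger rises, and mitochondrial oxidation genes had small ones. Among other genes of the pathways, counted below, the mitochondrial oxidation median of 0.46 was above the peroxisomal median of 0.36. That mitochondrial list also holds genes of propionate and branched-chain amino acid breakdown, and its median is the value of such a gene, Pccb. The thioesterases, the ketogenesis pair, the lipid droplet pair and the remaining PPARA targets each held members that went either way. At least 2-fold changes that passed were seen in 4 genes: Nudt7, Acot1 and Fabp1 were higher, and Pdk4 was lower. That is 10.3% of the listed genes, near the 8.16% of all genes tested that passed with at least a 2-fold change. The values of both groups did not overlap in 37 of the 39 genes, and 66.4% of all genes tested did not overlap either. Under scaling by library size alone, 37.7% of all called genes were higher, against 48.8% with the scaling used here, and 20 listed genes were higher and 8 lower. Without EP300 WT replicate 1, 16 were higher and 5 lower, while 1280 and 1322 of all genes were called in each direction. Without EP300 WT replicate 2, 18 were higher and 5 lower, while 1160 and 1146 of all genes were called.

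**Figure D1:**
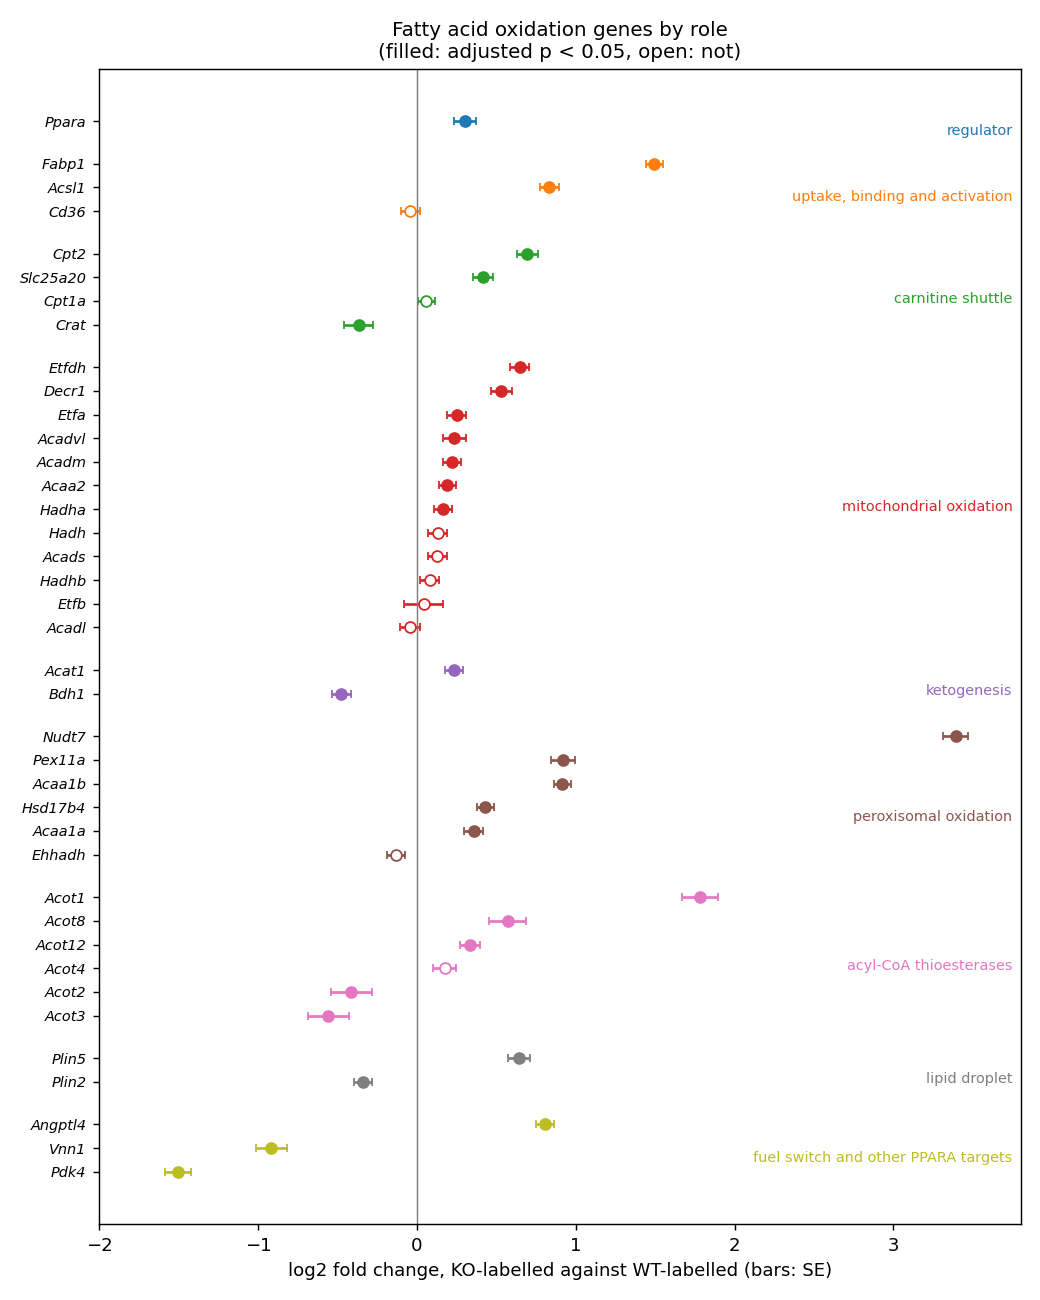
Log2 fold change of each of the 39 genes between the KO-labelled and the WT-labelled libraries (x axis), grouped by role (y axis, colours), with bars for the standard error and filled points for genes that passed. Nudt7 stands highest at 3.39, Pdk4 lowest, and the 12 mitochondrial oxidation genes lie between -0.04 and 0.65.

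The targeted gene and other features of these libraries moved with the labels as follows. Ep300 stood at 62.3 and 57.9 CPM (counts relative to the TMM-scaled library total) in the WT-labelled and at 73.7 and 72.3 in the KO-labelled libraries, which is 0.28 higher on the log2 scale (SE 0.07, edgeR adjusted p = 0.00498; 0.128 without EP300 WT replicate 2, in a range of 0.000241 to 0.128 over the 12 alternatives that keep the threshold), so the gene-level count was higher under the KO label, and directions here are drawn between libraries as labelled. A count over the whole gene does not show whether the floxed exons were lost. Albumin and the other 8 hepatocyte markers found in the table summed to 146359 and 145261 CPM under the WT label and to 122399 and 128427 under the KO label, with 4 higher and 4 lower. Of 9 endothelial markers 6 were lower and of 9 stellate markers 5 were lower, with summed levels of 225 to 253 against 297 to 304 CPM and of 181 to 189 against 285 to 294 CPM in the KO-labelled and WT-labelled libraries. Of 10 macrophage markers 5 were higher, with sums of 706 to 790 against 472 to 475 CPM. Without Gpnmb, the marker with the highest level, the sums were 375 to 381 against 327 to 331 CPM, and Adgre1, Clec4f, Csf1r, Vsig4 and Itgam were not called. Of 7 biliary markers 3 and of 5 neutrophil markers 2 were lower (111 to 114 against 183 to 186 CPM, and 9.25 to 11.8 against 13.8 to 15.8 CPM), and of 6 erythroid markers 2 were higher, Alas2 and Klf1. Alas2, an enzyme of haem synthesis in red cell precursors, stood at 45.7 and 45.1 CPM under the KO label and at 6.32 and 6.24 under the WT label, the other erythroid markers summed to 8.16 to 11.9 against 6.44 to 6.64 CPM, and no haemoglobin gene was called. Lymphocyte markers summed to 1.22 to 2.01 CPM in all 4 libraries, and 4 of 6 adipocyte and 4 of 5 skeletal muscle markers had 0 counts in every library. Xist, transcribed from the inactive X chromosome, had 3 and 2 counts under the WT label and 2310 and 1411 under the KO label, whereas the Y-linked genes Ddx3y, Kdm5d, Uty and Eif2s3y were detected in all 4 and none of them was called. All 7 male-biased liver genes were higher, and of 7 female-biased ones 4 were lower and 2 higher. In bulk RNA, fewer cells of a type and less RNA per cell cannot be told apart, and the part of these differences in the results that follow was not tested.

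**Figure D2:**
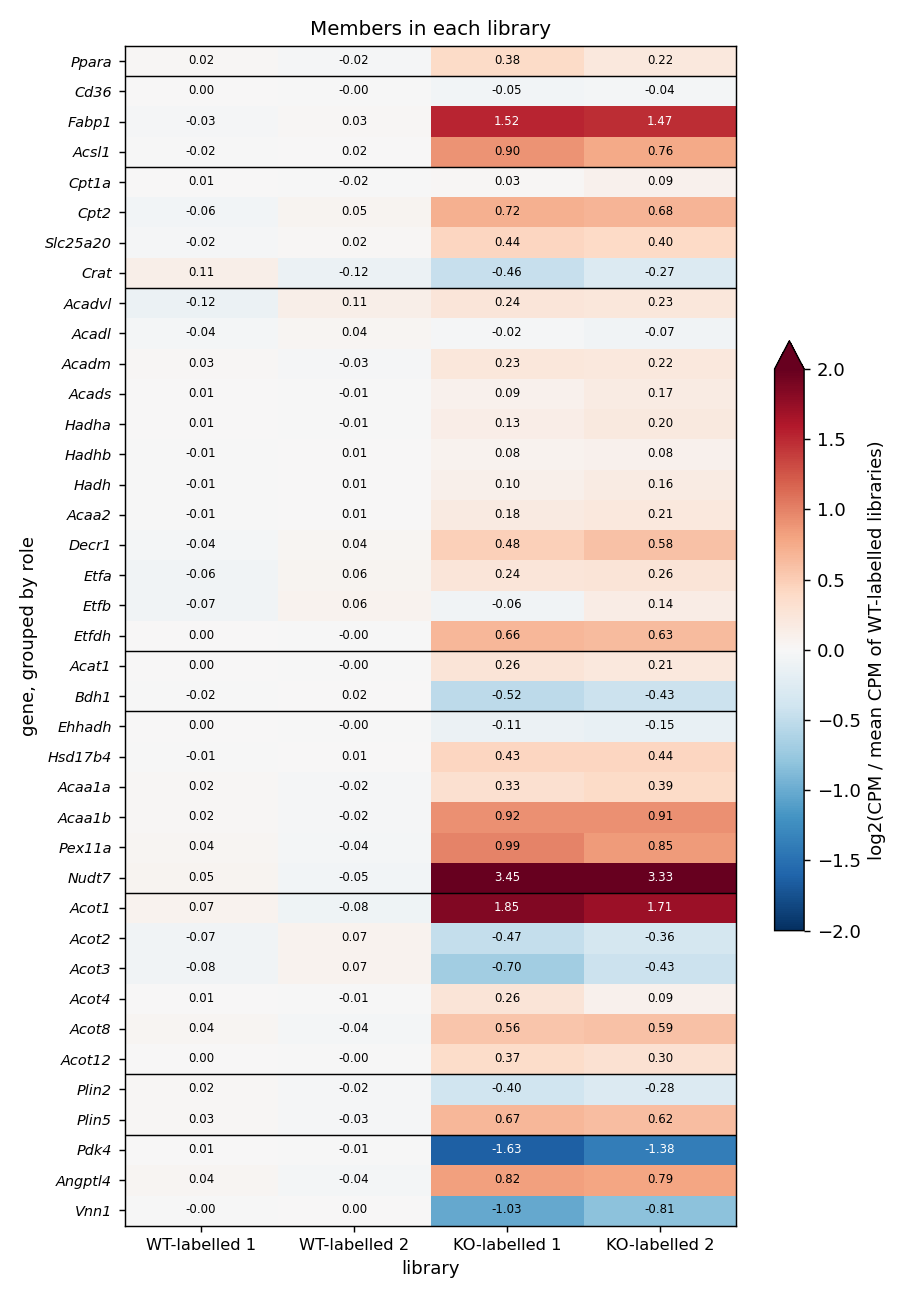
Each of the 39 genes (rows, grouped by role) in each of the 4 libraries (columns), as the log2 ratio of its CPM to the mean CPM of both WT-labelled libraries, in colour and as a printed value. The colour scale ends at 2, below the values of Nudt7, and both KO-labelled libraries take the same sign for every gene but Etfb.

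Ppara, the fatty acid receptor that heads the pathway, was modestly higher. Its level was 102 and 98.9 CPM in the WT-labelled and 131 and 117 in the KO-labelled libraries. The groups did not overlap, and KO replicate 1 was the highest library. The change of Ppara was 0.30 on the log2 scale (SE 0.07, edgeR adjusted p = 0.00260). The call ended with EP300 WT replicate 1 left out (adjusted p = 0.0558), with replicate 2 left out (adjusted p = 0.102) and with no filter (adjusted p = 0.0565), in a range of 4.53e-09 to 0.102 over the alternatives.

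Among the genes that take up, bind and activate fatty acids, Fabp1 and Acsl1 rose and Cd36 did not pass. Fabp1, the fatty acid binding protein of the liver cytosol (chromosome 6, 71199827 to 71205023, mm10), stood at 309 and 321 CPM in the WT-labelled and at 905 and 873 in the KO-labelled libraries. It rose 2.82-fold (log2 fold change 1.49, SE 0.05, edgeR adjusted p = 5.93e-12). Per kilobase of exon it had the highest level of all 39 genes in both groups, 570.3 CPM per kilobase under the WT label and 1607 under the KO label. Acsl1, the main acyl-CoA synthetase of the liver, stood at 353 and 361 CPM in the WT-labelled and at 667 and 606 in the KO-labelled libraries, a rise of 0.83 (SE 0.06, edgeR adjusted p = 1.66e-08). Both genes were far apart between groups and close within them. Cd36, a membrane protein that takes up long-chain fatty acids, was at 128 and 128 against 124 and 125 CPM, with a log2 fold change of -0.04 (SE 0.06, adjusted p = 0.640). It is also made by macrophages and endothelial cells, whose marker sums are given above.

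RefSeq promoter windows (build GRCm38.p6, 250 bases before to 50 after the start) were found for 32 of the 39 genes, in 37 windows. They were searched on both strands for the direct repeat AGGNCANAGGNCA, an approximation of the element that PPARA and its partner RXR bind, which occurs in 0.381% of all 32851 windows. Among the 37 windows of the listed genes, 1 held it, that of Fabp1, where it lies on the minus strand from base -67 before the start. The single half-site AGGTCA, which the direct repeat can contain, was in 12 of the 37 windows, against 16.3% of all windows. These 12 windows belong to 10 of the 32 genes, so some genes count more than once. The Fabp1 window (chr6:71199629-71199928, plus strand) is shown because it belongs to the listed gene with the highest level per kilobase and holds this match. Capitals mark the direct repeat and, nearer the start, a TATAAA box, a motif found in 13.6% of all windows, and the motifs in capitals do not overlap.
Fabp1: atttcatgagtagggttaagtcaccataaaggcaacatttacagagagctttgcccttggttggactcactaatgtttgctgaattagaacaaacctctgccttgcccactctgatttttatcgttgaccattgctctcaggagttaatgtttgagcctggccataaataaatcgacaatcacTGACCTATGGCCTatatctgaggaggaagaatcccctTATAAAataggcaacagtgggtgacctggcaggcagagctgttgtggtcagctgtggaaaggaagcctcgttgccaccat

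The carnitine shuttle moved unevenly. Cpt1a, the outer-membrane transferase that sets the pace of entry into mitochondria, was at 522 and 512 CPM in the WT-labelled and at 528 and 550.3 in the KO-labelled libraries, with a log2 fold change of 0.06 (SE 0.05, adjusted p = 0.428). Cpt2, the inner-membrane transferase that completes the transfer, stood at 57.0 and 61.5 against 97.4 and 94.7 CPM and rose by 0.70 (SE 0.07, edgeR adjusted p = 7.33e-07). The ratio of Cpt2 to Cpt1a per kilobase was 0.349 and 0.384 in the WT-labelled and 0.590 and 0.550 in the KO-labelled libraries. Slc25a20, the carrier that exchanges acylcarnitine for carnitine, rose by 0.42 (SE 0.06, edgeR adjusted p = 7.31e-05) from 84.7 and 86.8 to 116 and 113 CPM. Crat, which moves acetyl groups to carnitine, fell by 0.36 (SE 0.09, edgeR adjusted p = 0.00537) from 55.9 and 47.7 to 37.6 and 42.9 CPM, with the wide spread of both groups visible in these values. The call of Crat ended without EP300 WT replicate 1 (log2 fold change -0.24, adjusted p = 0.196) and with no filter (adjusted p = 0.142), in a range of 1.35e-06 to 0.196.

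Of the 12 genes of mitochondrial beta-oxidation, 7 rose, 0 fell and 5 did not pass, with a median log2 fold change of 0.18. Leaving out EP300 WT replicate 1 reduced the rises to 2, leaving out EP300 WT replicate 2 to 4, and there were 4 under library size scaling or with no filter. The 2 largest rises were outside the core spiral. Etfdh, the oxidoreductase that passes electrons from the flavoprotein to ubiquinone, stood at 93.8 and 93.8 CPM in the WT-labelled and at 148 and 146 in the KO-labelled libraries, and rose by 0.65 (SE 0.06, edgeR adjusted p = 4.71e-07). Decr1, a reductase needed for fatty acids with double bonds, rose by 0.53 (SE 0.07, edgeR adjusted p = 1.17e-05) from 76.9 and 81.7 to 111 and 119 CPM. Neither lost its call in any of the 12 alternatives that keep the threshold.

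The acyl-CoA dehydrogenases, which start each round, changed little. Acadvl, for very long chains, was at 147 and 172 CPM in the WT-labelled and at 189 and 187 in the KO-labelled libraries, higher by 0.24 on the log2 scale (SE 0.07, edgeR adjusted p = 0.0165), and 42.9% of its exon bases overlap its neighbour Dvl2. Acadm, for medium chains, was at 224 and 216 against 257 and 255.0 CPM, higher by 0.22 on the log2 scale (SE 0.06, edgeR adjusted p = 0.00636). Acadl, for long chains, and Acads, for short chains, did not pass, at -0.04 (SE 0.06, adjusted p = 0.647) and 0.13 (SE 0.06, adjusted p = 0.124). The Acadvl call ended without EP300 WT replicate 1 (0.13, adjusted p = 0.335), with no filter (adjusted p = 0.173) and under library size scaling (adjusted p = 0.0760), in a range of 7.55e-05 to 0.335. That of Acadm ended with EP300 WT replicate 1 (adjusted p = 0.0744) or EP300 WT replicate 2 (adjusted p = 0.138) left out, in a range of 0.000103 to 0.138, and Acads passed without EP300 KO replicate 1 (adjusted p = 0.0154, range 0.0154 to 0.473).

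The steps after the dehydrogenases were also near their WT-labelled levels. Hadha and Hadhb encode the subunits of the mitochondrial trifunctional protein and lie head to head on chromosome 5, 0.086 kb apart, so that their promoter windows share 228 bases. Hadha was at 250.03 and 248 CPM in the WT-labelled and at 273 and 285 in the KO-labelled libraries, higher by 0.16 on the log2 scale (SE 0.06, edgeR adjusted p = 0.0336). Hadhb was at 115 and 116 against 122 and 122 CPM, 0.08 (SE 0.06, adjusted p = 0.339), and 19.7% of the 50-base stretches of its transcripts also occur in other annotated genes. Their ratio per kilobase was 1.65 and 1.62 in the WT-labelled and 1.70 and 1.77 in the KO-labelled libraries. Hadh, a 3-hydroxyacyl-CoA dehydrogenase, did not pass (0.13, SE 0.06, adjusted p = 0.0958), except without EP300 KO replicate 1 (adjusted p = 0.0113, range 0.0113 to 0.430). Acaa2, the mitochondrial thiolase, rose from 467 and 471 to 530 and 541 CPM (0.19, SE 0.05, edgeR adjusted p = 0.0104) and had the second highest level per kilobase of all 39 genes under both labels.

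The Hadha and Acaa2 calls each ended with either WT-labelled library left out and held with either KO-labelled one left out. That of Hadha ended with EP300 WT replicate 1 (adjusted p = 0.204) or EP300 WT replicate 2 (adjusted p = 0.222) left out, with DESeq2 (adjusted p = 0.0562), under library size scaling (adjusted p = 0.200) and with no filter (adjusted p = 0.0852), in a range of 0.000685 to 0.222. That of Acaa2 ended with EP300 WT replicate 1 (adjusted p = 0.155) or EP300 WT replicate 2 (adjusted p = 0.126) left out, and under library size scaling (adjusted p = 0.0817), in a range of 2.18e-05 to 0.155. Of the subunits of electron transfer flavoprotein, Etfa rose from 177 and 193 to 218 and 222 CPM (0.25, SE 0.06, edgeR adjusted p = 0.00452), a call that ended without EP300 WT replicate 1 (adjusted p = 0.160) and with no filter (adjusted p = 0.0643), in a range of 1.18e-05 to 0.160. Etfb was at 11.4 and 12.5 against 11.5 and 13.2 CPM (0.04, SE 0.12, adjusted p = 0.826). Of the exon bases of Etfb, 58.2% lie in other annotated genes, so its level is uncertain.

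The ketogenesis pair moved in opposite directions. Acat1, which joins acetyl-CoA units at the head of the pathway and also splits them, rose from 162 and 162 CPM in the WT-labelled to 194 and 187 in the KO-labelled libraries (0.23, SE 0.06, edgeR adjusted p = 0.00539). Bdh1, which makes the ketone body 3-hydroxybutyrate from acetoacetate, fell from 195 and 199 to 138 and 146 CPM (-0.48, SE 0.06, edgeR adjusted p = 1.32e-05). The ratio of Acat1 to Bdh1 per kilobase was 0.859 and 0.841 in the WT-labelled and 1.46 and 1.33 in the KO-labelled libraries. Bdh1 kept its call in all 12 alternatives that keep the threshold, whereas that of Acat1 ended with EP300 WT replicate 1 (adjusted p = 0.0995) or EP300 WT replicate 2 (adjusted p = 0.0985) left out, in a range of 2.47e-05 to 0.0995.

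Of the 6 peroxisomal genes, 5 rose and 0 fell, with a median log2 fold change of 0.67. Nudt7, a peroxisomal enzyme that cleaves coenzyme A and its esters (chromosome 8, 114133557 to 114154739, mm10), had the largest change of the 39 genes. It was at 21.01 and 19.5 CPM in the WT-labelled and at 222 and 204 in the KO-labelled libraries, 399 and 376 counts against 3836 and 3542. It rose 10.49-fold (log2 fold change 3.39, SE 0.08, edgeR adjusted p = 2.12e-14), and per kilobase it went from 3.61 to 37.9 CPM. Its nearest tested neighbours did not pass: Mon1b, 488 kb before it, was at -0.19 (SE 0.11, adjusted p = 0.223), and Wwox, 285 kb after it, at 0.05 (SE 0.15, adjusted p = 0.819). Of the 2 RefSeq windows of Nudt7, the downstream one (chr8:114133368-114133667, plus strand) is shown, as that of the gene with the largest change. It holds none of the motifs searched, so it has no capitals.
Nudt7: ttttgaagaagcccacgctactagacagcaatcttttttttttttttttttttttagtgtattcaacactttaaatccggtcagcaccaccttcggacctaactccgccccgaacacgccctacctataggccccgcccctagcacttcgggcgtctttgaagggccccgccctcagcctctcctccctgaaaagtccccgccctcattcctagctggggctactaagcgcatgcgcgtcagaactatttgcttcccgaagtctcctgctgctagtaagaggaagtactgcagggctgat

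The other peroxisomal genes rose less. Pex11a, a membrane protein that promotes peroxisome division, went from 47.1 and 44.6 to 91.1 and 82.4 CPM (0.92, SE 0.07, edgeR adjusted p = 7.96e-08). Hsd17b4, the bifunctional enzyme of branched and very long chains, went from 257 and 259 to 347 and 348 CPM (0.43, SE 0.05, edgeR adjusted p = 1.40e-05). Ehhadh, the bifunctional enzyme of straight chains and a known PPARA target, was at 252 and 251 CPM against 233 and 227 (-0.13, SE 0.06, adjusted p = 0.0871). It was lower past the threshold under library size scaling (adjusted p = 0.0126) and with EP300 KO replicate 1 left out (adjusted p = 0.0392), in a range of 0.0126 to 0.365.

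The peroxisomal thiolases, Acaa1a and Acaa1b, are near-identical genes 183 kb apart on chromosome 9. Acaa1b was at 358 and 349 CPM in the WT-labelled and at 669.6 and 665 in the KO-labelled libraries (0.92, SE 0.05, edgeR adjusted p = 1.69e-09), and Acaa1a at 163 and 159 against 202 and 211 (0.36, SE 0.06, edgeR adjusted p = 0.000179). Of the counts of the pair, Acaa1b held 68.7% in both WT-labelled libraries (95% Wilson intervals 67.8 to 69.6% and 67.7 to 69.6%) and 76.8% (76.1 to 77.5%) and 75.9% (75.2 to 76.6%) in the KO-labelled ones, intervals that cover counting error only. Of the 50-base stretches of their transcripts, 30.5% of Acaa1b and 12.9% of Acaa1a occur in another gene, so the division of reads between them is uncertain.

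The acyl-CoA thioesterases split, with 3 higher, 2 lower and 1 that did not pass. Acot2, Acot1, Acot4 and Acot3 lie in this order on the plus strand of chromosome 12, with gaps of 15.6, 20.0 and 3.54 kb. Acot1, the cytosolic enzyme, was at 8.90 and 8.003 CPM in the WT-labelled and at 30.5 and 27.6 in the KO-labelled libraries, a 3.44-fold rise (log2 fold change 1.78, SE 0.11, edgeR adjusted p = 3.74e-09). Acot2, the mitochondrial enzyme next to it, was at 11.6 and 12.8 against 8.80 and 9.54 CPM and fell by 0.41 (SE 0.13, edgeR adjusted p = 0.0207). Acot3, a peroxisomal enzyme, was at 13.7 and 15.2 against 8.91 and 10.7 CPM and fell by 0.56 (SE 0.13, edgeR adjusted p = 0.00316). Acot4, also peroxisomal, was at 58.8 and 57.7 against 69.7 and 61.8 CPM and did not pass (0.17, SE 0.07, adjusted p = 0.0836), except without EP300 KO replicate 2 (0.26, adjusted p = 0.00193, range 0.00193 to 0.358). The neighbours Acot1 and Acot2 thus moved in opposite directions, with no overlap between the groups in either.

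**Figure D3:**
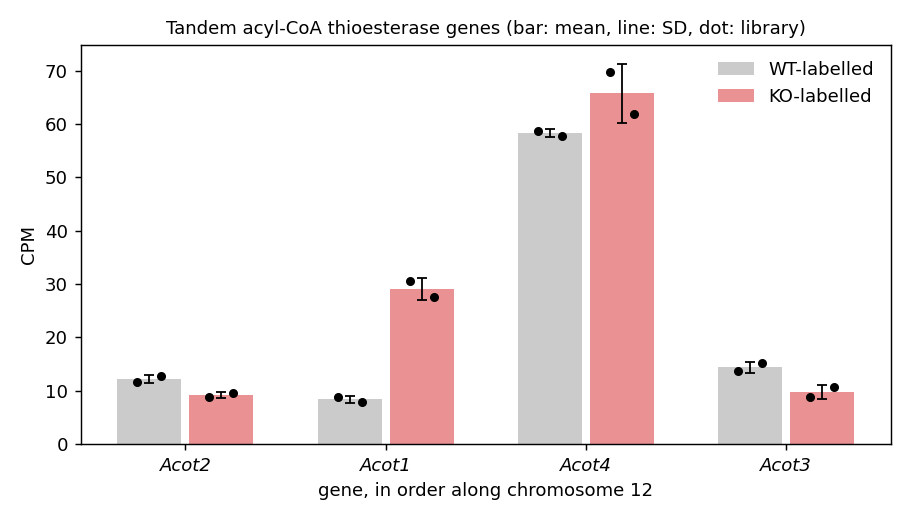
CPM (y axis) of the tandem thioesterase genes in their order along chromosome 12 (x axis), with bars for the mean of 2 libraries, lines for the SD and dots for the libraries. Acot1 rises from 8.45 to 29.1 CPM, while its neighbour Acot2 goes from 12.2 to 9.17.

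Within the cluster, Acot1 held 9.57% (95% Wilson interval 8.28 to 11.0%) and 8.54% (7.34 to 9.92%) of the counts of Acot1 to Acot4 in the WT-labelled libraries and 25.9% (24.0 to 27.8%) and 25.2% (23.3 to 27.2%) in the KO-labelled ones. The ratio of Acot1 to Acot2 per kilobase was 0.429 and 0.351 in the WT-labelled and 1.94 and 1.62 in the KO-labelled libraries. An exact permutation test of 2 libraries against 2 cannot go below p = 0.333 (two-sided), so this ratio, chosen after its values were seen, is given as a description. Of the 50-base stretches of their transcripts, 19.2% of Acot1, 27.7% of Acot2, 19.1% of Acot3 and 4.53% of Acot4 occur in another gene, so reads may have been divided wrongly or dropped. Acot2 no longer passed once EP300 KO replicate 1 was left out (adjusted p = 0.0718), likewise with EP300 WT replicate 1 (adjusted p = 0.0764) or EP300 WT replicate 2 (adjusted p = 0.214) left out, with DESeq2 (adjusted p = 0.210) and with no filter (adjusted p = 0.0932), in a range of 0.00854 to 0.214. The call of Acot3 ended without EP300 WT replicate 2 (adjusted p = 0.109) and with no filter (adjusted p = 0.0722), in a range of 3.17e-05 to 0.109.

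The windows at the starts of Acot1 (chr12:84009252-84009551) and Acot2 (chr12:83987611-83987910), both on the plus strand, are shown because these neighbours changed in opposite directions. Of 261 aligned bases, 155 were identical (59.4%), with gaps left out. Unrelated windows were not aligned for comparison, so this share does not show that the windows are related. Capitals mark the letters CCAAT or, on the other strand, ATTGG, which 37.4% of all windows hold, at base -79 in Acot1 and at base -244 in Acot2.
Acot1: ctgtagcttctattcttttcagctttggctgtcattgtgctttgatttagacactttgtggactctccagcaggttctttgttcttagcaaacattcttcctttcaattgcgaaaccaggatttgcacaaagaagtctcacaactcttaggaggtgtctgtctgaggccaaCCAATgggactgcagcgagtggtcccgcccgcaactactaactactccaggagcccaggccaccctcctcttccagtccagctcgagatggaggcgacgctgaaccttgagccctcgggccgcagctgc
Acot2: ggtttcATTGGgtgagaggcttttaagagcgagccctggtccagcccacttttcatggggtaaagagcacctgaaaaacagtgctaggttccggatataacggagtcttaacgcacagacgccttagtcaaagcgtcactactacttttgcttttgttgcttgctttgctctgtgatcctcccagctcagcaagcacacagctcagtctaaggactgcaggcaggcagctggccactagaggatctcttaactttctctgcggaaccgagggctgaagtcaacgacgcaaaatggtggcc

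The thioesterases outside the cluster both rose. Acot8, a peroxisomal enzyme of broad range, went from 10.4 and 9.87 to 14.9 and 15.2 CPM (0.57, SE 0.12, edgeR adjusted p = 0.00121). Acot12, a cytosolic enzyme that releases acetate from acetyl-CoA, went from 102 and 101 to 131 and 125 CPM (0.34, SE 0.06, edgeR adjusted p = 0.000489). Both kept their calls in all 12 alternatives that keep the threshold.

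The lipid droplet coat proteins also moved in opposite directions. Plin2, the general coat protein of hepatocyte droplets, fell from 490.3 and 475 CPM in the WT-labelled to 365 and 398 in the KO-labelled libraries (-0.34, SE 0.06, edgeR adjusted p = 0.000275). Plin5, which tethers droplets to mitochondria, rose from 46.4 and 44.7 to 72.3 and 70.1 CPM (0.64, SE 0.07, edgeR adjusted p = 2.71e-06). The ratio of Plin5 to Plin2 per kilobase went from 0.159 and 0.158 to 0.333 and 0.297. Of the adipocyte markers listed for comparison, Adipoq and Lep had 0 counts in all 4 libraries.

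Of the other PPARA targets, 1 rose and 2 fell. Pdk4, the kinase that shuts off pyruvate dehydrogenase when fat is burned, was at 84.3 and 82.8 CPM in the WT-labelled and at 27.0 and 32.0 in the KO-labelled libraries. Pdk4 was 2.83-fold lower (SE 0.08 on the log2 scale, edgeR adjusted p = 9.38e-10), the largest fall of the 39 genes. Vnn1, a pantetheinase that releases cysteamine in coenzyme A breakdown, fell from 30.5 and 30.6 to 15.0 and 17.4 CPM (-0.92, SE 0.10, edgeR adjusted p = 2.19e-06). Angptl4, a secreted inhibitor of lipoprotein lipase, rose from 187 and 177 to 323 and 315 CPM (0.81, SE 0.06, edgeR adjusted p = 2.07e-08). These 3 kept their calls in all 12 alternatives that keep the threshold. The window at the start of Pdk4 (chr6:5496229-5496528, minus strand, read along the gene) is shown as that of the largest fall, with ATTGG in capitals.
Pdk4: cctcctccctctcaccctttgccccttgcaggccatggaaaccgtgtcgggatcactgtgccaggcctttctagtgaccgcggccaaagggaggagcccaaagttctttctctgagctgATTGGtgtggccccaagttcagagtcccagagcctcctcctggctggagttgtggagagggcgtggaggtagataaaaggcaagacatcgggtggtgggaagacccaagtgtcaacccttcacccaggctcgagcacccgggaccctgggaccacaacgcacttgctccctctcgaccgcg

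Other genes of the same or adjoining pathways, from lists of non-members, were counted beside the listed genes. The mitochondrial list is broader than fatty acid oxidation. It includes Pcca, Pccb, Mcee, Mut, Acad8 and Acadsb, of propionate or branched-chain amino acid breakdown, and all of these were called higher. Of 17 other mitochondrial oxidation genes tested, 13 rose and 1 fell (median log2 fold change 0.46), with Slc22a5, the plasma membrane carnitine transporter, at 0.87 (SE 0.08) and Cpt1c, a brain-type relative of Cpt1a at very low counts (7 and 7 against 19 and 20), at -1.32 (SE 0.46). The Cpt1c call ended with any 1 of the 4 libraries left out (adjusted p = 0.134 to 0.181), with DESeq2 (0.315) and with no filter (0.0717), in a range of 0.0273 to 0.315. Of 39 other peroxisomal genes, 27 rose and 3 fell (median 0.36). Pecr, a trans-2-enoyl-CoA reductase, rose by 1.14 (SE 0.07) and Abcd2, a transporter of very long chain acyl-CoA, fell by 1.75 (SE 0.07). The medians of both lists were above that of all genes tested, and the shares of members higher were above the 16.7% of all genes. Among the listed genes the order was the reverse, with medians of 0.67 for peroxisomal and 0.18 for mitochondrial oxidation genes. The median of the other mitochondrial genes is the value of Pccb and was not taken without the propionate and amino acid genes.

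The remaining lists held calls in both directions, except the other thioesterases, where no gene was called lower. Of 6 other ketone body genes tested, 2 rose and 2 fell, with Bdh2, a cytosolic dehydrogenase, at 1.40 (SE 0.20) and Slc16a1, a carrier of ketone bodies and lactate, at -0.55 (SE 0.07). Of 7 other thioesterases 3 rose and 0 fell, with Acot11 at 1.37 (SE 0.21) and Baat, which conjugates bile acids, at 0.76 (SE 0.07). Of 12 other uptake and activation genes 6 rose and 5 fell (median 0.06, against 0.83 for the listed ones). Fabp5 was at -1.41 (SE 0.08) and the synthetase Acsl4 at -1.33 (SE 0.06), opposite to Fabp1 and Acsl1. Of 16 other lipid droplet genes 8 rose and 4 fell. G0s2, an inhibitor of the lipase ATGL, rose by 1.97 (SE 0.07) and Hilpda, another inhibitor of that lipase, fell by 2.33 (SE 0.14).

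**Figure D4:**
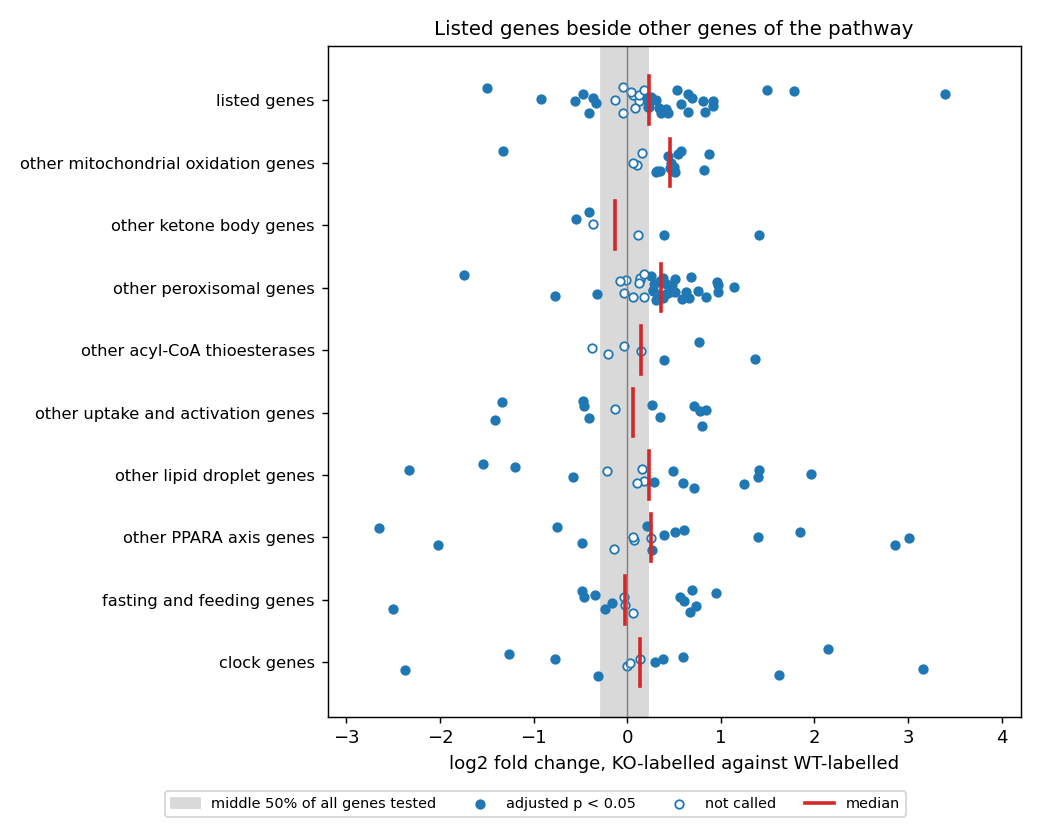
Log2 fold change (x axis) of the 39 listed genes and of 9 lists of other genes (y axis), with filled points for genes that passed, open points for those that did not, red lines for medians and a grey band for the middle 50% of all genes tested. Other peroxisomal and other mitochondrial oxidation genes centre at 0.36 and 0.46, while the PPARA axis and lipid droplet lists spread to both sides.

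Genes of the PPARA axis and of feeding and daily rhythm showed no single direction. Of 17 PPARA axis genes tested 9 rose and 4 fell, with the fatty acid hydroxylases Cyp4a12a and Cyp4a12b at 2.86 (SE 0.12) and 3.01 (SE 0.23), near-identical genes of which Cyp4a12a was also counted above among the male-biased liver genes. Others of this list, named after their values were seen, went the other way: the secreted hormone gene Fgf21 was at -2.65 (SE 0.18), and the hydroxylase genes Cyp4a31 and Cyp4a10 were at -2.02 (SE 0.09) and -0.75 (SE 0.07), all called lower. Of 15 fasting and feeding genes 6 rose and 6 fell, with Igfbp1 at -2.50 (SE 0.05) and Sds, a serine dehydratase, at 0.95 (SE 0.06). Of 13 clock genes 6 rose and 4 fell, with Ciart at 3.16 (SE 0.12) and Npas2 at -2.38 (SE 0.66), the latter at 2 and 2 counts in the KO-labelled against 12 and 12 in the WT-labelled libraries. The Npas2 call ended with any 1 of the 4 libraries left out (adjusted p = 0.0788 to 0.0941), with DESeq2 (0.1795) and with no filter (0.05001), in a range of 0.00593 to 0.1795. Feeding state and hour of collection are not in the labels, and the part of either in the values of Pdk4, Angptl4, Nudt7 and the other listed genes was not tested.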

How the data were processed

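For the EP300 experiment, the authors deposited 1 table of unnormalised counts of reads per gene. Its 4 columns that match a sample title were used, and 4 that match none were not. The submitters' processing notes list STAR, HTSeq and DESeq2 beside the genome build mm10 and do not say what each was used for. The name of the deposited counts holds the word Hisat, an aligner not in those notes, so which aligner made them is uncertain. Neither the annotation nor the strand setting is given in the sources used here, and the kit named in the labels' protocols does not mark strand. The 6 diet libraries were not used here, because their identifiers are not those of the mouse annotation. Symbols, coordinates and exon lengths are from GENCODE M21 (mm10), which matched 55144 of 55385 identifiers. Total counts were 17709799 and 17811489 in the EP300 KO and 18575701 and 18831671 in the EP300 WT libraries.

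The fit used edgeR 4.0.16 in R 4.3.3 with its quasi-likelihood test on TMM-scaled counts. Genes were kept by filterByExpr (minimum count 10), the model held the group alone, and p-values were adjusted by Benjamini-Hochberg over all 14200 genes tested, at a threshold of 0.05 and with 2 residual degrees of freedom. The biological coefficient of variation was 5.47%. Standard errors were taken as the size of the log2 fold change over the root of its F. No replicate pair agreed within sampling noise (chi-square per degree of freedom 2.60 and 5.50). All listed genes were named, and from each pathway list the 2 passing genes with the largest change whose groups did not overlap. Neighbours, ratios, motifs and promoter windows were chosen after values were seen, and the listed genes, lists and tests were chosen with earlier results of these data known. Alternatives were DESeq2 1.42.0, limma 3.58.1 (voom), other scalings and filters, leaving out the 20 most abundant genes, a 1.5-fold threshold, a block by replicate number, and each library left out in turn. The fit was also run on simulated counts with known changes, in which every gene had the same dispersion, and no result here rests on that run.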

Additional observations from a re-analysis of the deposited data

How the results depend on the processing

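Of the 30 listed genes called, 20 kept their call and direction in all 12 alternatives other than the 1.5-fold threshold, 16 of them higher and 4 lower; the other 10 are named in the report with the values that end their calls, and no listed gene that was called changed sign. With the 1.5-fold threshold, 895 of all genes were higher and 1260 lower, and 10 listed genes were higher and 2 lower: higher were 0 of the regulator, 1 of the carnitine shuttle, 1 of mitochondrial oxidation, 0 of ketogenesis, 3 of the peroxisome and 1 of the thioesterases, and lower were 0 of the carnitine shuttle, of ketogenesis, of the thioesterases and of the lipid droplet. With no filter on low counts, 24666 genes were tested, 1416 were higher and 1287 lower, 4 listed genes were lower, 4 mitochondrial oxidation genes were higher, and 0 of the regulator, 0 lower of the carnitine shuttle and 0 lower of the thioesterases were called. With DESeq2, 1518 genes were higher and 1422 lower, and 1 thioesterase was lower. Under library size scaling 4 mitochondrial genes were higher and 1 peroxisomal gene was lower. With a library left out, genes higher ran from 1160 to 2574 and lower from 1146 to 2580, listed genes higher from 16 to 25 and lower from 5 to 7, Ppara from 0 to 1, carnitine shuttle lower from 0 to 1, mitochondrial oxidation higher from 2 to 9, ketogenesis higher from 0 to 1, peroxisomal lower from 0 to 1 and thioesterases lower from 0 to 2; where 1 library is left in a group, it is assumed to vary like the others. The cause of these shifts was not tested.

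The replicate numbers do not pair the libraries in the labels, and same-numbered libraries did not deviate together (correlation -0.00075 across genes). With the replicate number as a block, 2526 genes were higher and 2664 lower, and 23 and 7 listed genes. Depth limits Acot1 to Acot3, Acot8, Etfb and Vnn1 the most of the listed genes, since these had the fewest counts.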
